A study of Saccharomyces cerevisiae with 71 samples.

Results

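Charging of tRNA during arginine depletion was compared between wild-type Saccharomyces cerevisiae and an isogenic gcn2Δ strain. The experiment comprised 12 of the 71 arrays of the series, those whose medium lacked Arg and held no added ornithine. Of these, 8 arrays carried tRNA from 4 depleted cultures, 1 for each strain at 15 and at 60 min, and 4 carried the cultures at 0 min that served as references. Each array reads 41 tRNA probes, of which 4 are for tRNAArg (named Arg-9 to Arg-12) and 37 carry other names. What the probe named Sec-2, among the 37, reads is not given in the sources used here. All 41 were analysed in every culture. Both strains were made prototrophic by restoring LEU2, TRP1 and URA3, the wild type with URA3 as such and the gcn2Δ strain with URA3 in place of GCN2. Cells in mid-log phase in synthetic complete medium were moved to the same medium without Arg. The deletion itself could not be checked, because the arrays carry tRNA probes and none for the GCN2 mRNA. The probe names give an amino acid and a number, and which anticodon each probe reads is not given in the sources used here.

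In a charged tRNA the cognate amino acid is esterified to the 3' end by its aminoacyl-tRNA synthetase. When an amino acid runs short its tRNAs lose charge, and uncharged tRNA binds and activates the protein kinase Gcn2p, which phosphorylates eIF2α. This lowers general translation initiation and raises translation of GCN4, whose product, a transcription activator, induces amino acid biosynthetic genes, those for arginine among them. A gcn2Δ strain lacks this general amino acid control through the kinase. Yeast makes arginine from glutamate by way of ornithine, with further nitrogen from glutamine, through carbamoyl phosphate, and from aspartate, through argininosuccinate.

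The value on each array is a charging ratio, the charged over total tRNA of the depleted culture relative to the 0-min culture of the same strain and dye orientation, with 1 for no change. The 2 arrays of a culture carried the same RNA with the dyes exchanged, and were averaged as 1 replicate after each was set to a log2 median of 0 over its 41 probes. This average is called the log2 charging change here. It is relative to the other tRNAs on the array and does not give a percentage charged. All 164 values of the 4 reference arrays were exactly 1, so the spread of the 0-min cultures is unknown, and both times of a strain share 1 reference. Across probes, the paired arrays correlated at 0.95 (15 min) and 0.96 (60 min) for gcn2Δ and at 0.70 and 0.44 for the wild type. Over the 37 probes outside Arg the gcn2Δ correlation at 60 min was 0.70, and 10 of them had opposite signs on the paired arrays. In the wild type at 60 min 16 of the 37 did. The largest gaps within a pair were those of Asp-3 (0.61 in the wild-type culture at 15 min, 0.85 in the gcn2Δ culture at 60 min), Pro-6 (0.81, wild type, 60 min) and Glu-3 (0.73, gcn2Δ, 15 min), all on the log2 scale.

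With no replicate culture, each Arg-depleted culture was tested against 6 cultures taken at its own time in the His, Trp and Trp/Phe/Tyr depletions, whose medium kept Arg, with limma and Benjamini-Hochberg adjustment over the 41 probes. A probe was called at an adjusted p below 0.05. The test takes the lone culture to vary like the 6 others, which serve for both strains. The paired arrays of these other cultures agreed unevenly over the 41 probes. Their correlations ran from -0.28 (gcn2Δ without His, 15 min) to 0.90 (gcn2Δ without Trp, 60 min). Low values were also 0.08 and 0.11 without His at 60 min (wild type and gcn2Δ). For His-3, Trp-3, Phe-3 and Tyr-3 these 6 include cultures starved of that very amino acid, and their spread includes that depletion. The p-values measure the spread between experiments and media, not between cultures grown alike.

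Charging of tRNAArg fell in the gcn2Δ strain, for 2 of the 4 probes by the test at 15 min and for all 4 at 60 min. In the gcn2Δ culture the 4 probes averaged 1.89-fold lower charging at 15 min and 8.07-fold lower at 60 min than at 0 min. No probe was called in either wild-type culture.

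At 60 min the 2 arrays of the gcn2Δ culture gave charging ratios of 0.127 and 0.0913 for Arg-9, with total tRNA in Cy3 and in Cy5 respectively. With the dyes in this order, Arg-10 read 0.101 and 0.0999, Arg-11 read 0.118 and 0.111, and Arg-12 read 0.202 and 0.179. The wild-type arrays at that time read 1.18 and 0.904, 0.958 and 0.804, 0.938 and 0.693, and 1.03 and 0.925 for these probes in turn. The highest gcn2Δ ratio was thus well under the lowest wild-type ratio, and the arrays of the strains did not overlap for any of the 4 probes. Both gcn2Δ arrays lay below both wild-type arrays at 60 min for 14 of all 41 probes (34.1%), so this alone does not set the Arg probes apart. The gcn2Δ means correspond to charging lower than at 0 min by 9.28-fold (Arg-9), 9.94-fold (Arg-10) and 8.74-fold (Arg-11), with 5.26-fold for Arg-12. Limma called these 4 probes and no other of the 41 (9.76%), all lower. Relative to the 6 comparison cultures the log2 differences were -3.08 ± 0.22 (SE), -3.34 ± 0.22, -3.09 ± 0.20 and -2.34 ± 0.24 in the same order. Their adjusted p values from limma lay between 1.02e-05 and 0.000121.

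At 15 min both arrays of the gcn2Δ culture already read under 1 for each Arg probe. Arg-9 stood at 0.362 and 0.447, Arg-10 at 0.657 and 0.644, Arg-11 at 0.520 and 0.504, and Arg-12 at 0.557 and 0.604. The corresponding wild-type ratios were 0.963 and 1.02, 1.08 and 1.14, 0.863 and 0.789, and 0.977 and 0.998. Here too the arrays of the strains did not overlap for any Arg probe, as for 16 of all 41 probes (39%). Limma called 2 of the 41 probes (4.88%), Arg-9 and Arg-10, both lower and both with an adjusted p of 0.0224. The adjusted p from limma was 0.0959 for Arg-11, with a log2 change of -0.97, and 0.157 for Arg-12, with a log2 change of -0.79. The 15-min calls depended on single comparison cultures: none was made without the wild-type or without the gcn2Δ Trp/Phe/Tyr culture, and 4 were made without the wild-type Trp culture.

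For the wild type the Arg probes averaged -0.04 and then -0.12 on the log2 scale. Limma called 0 of 41 probes at either time, and none had an unadjusted p below 0.05. Among the 4, Arg-11 stood lowest at both times, at -0.28 and -0.31. The exact two-sided permutation p of the Arg mean was 0.857 and 0.714 for the wild-type cultures. It was 0.143 at both times in the gcn2Δ strain, the smallest that 1 culture against 6 allows, so this test could not pass 0.05.

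**Figure D1:**
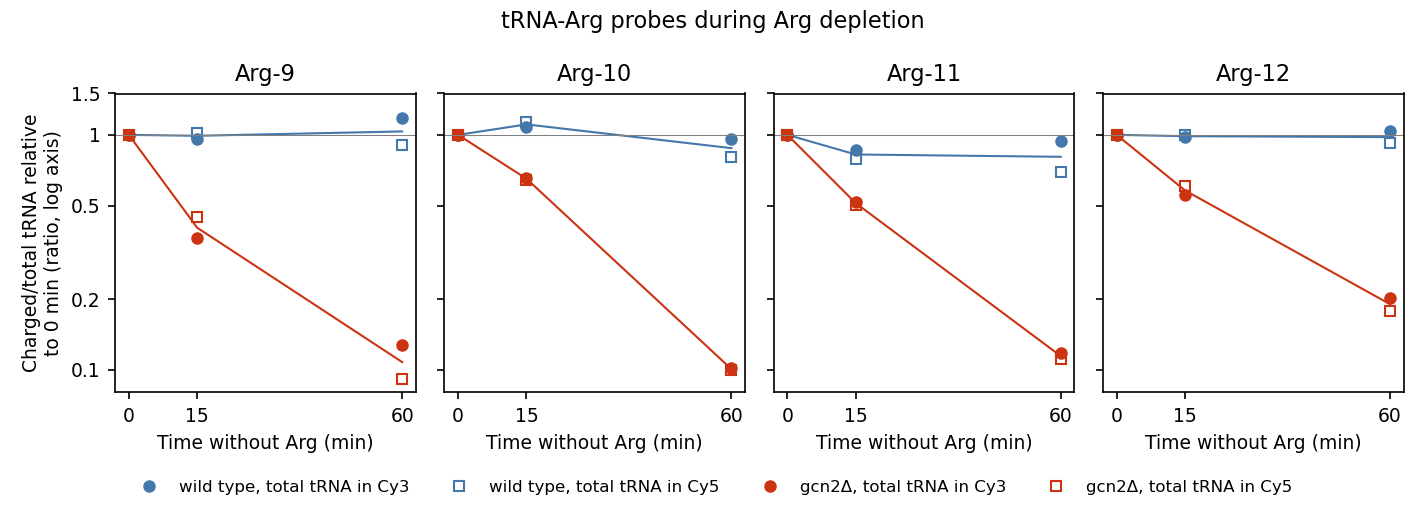
Charging ratio (charged over total tRNA relative to 0 min, log axis) of each Arg probe against time without Arg in minutes; filled circles are arrays with total tRNA in Cy3, open squares those with total tRNA in Cy5, and lines join the mean of the arrays at each time, with the 0-min arrays at exactly 1. The gcn2Δ values (red) step down at 15 min and again at 60 min, where they lie between 0.0913 and 0.202, while the wild-type values (blue) lie between 0.693 and 1.18.

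The Arg probes did not move by the same amount. At 60 min the charging change of Arg-12 lay above the mean of the other 3 by 0.82 on the log2 scale, with 0.81 and 0.83 on the separate arrays. In the 6 comparison cultures the same contrast ran from -0.26 to 0.34. At 15 min Arg-9 lay lowest, 0.52 below the mean of the other 3, while its contrast in the comparison cultures ran from -0.17 to 0.38. Arg-10 changed place, from the least affected at 15 min, 0.40 above the other 3, to the lowest mean at 60 min, 0.40 below them, although on the Cy5 array Arg-9 was then lower. The Arg-10 contrast at 15 min lay inside its comparison range of -0.03 to 0.48 (exact permutation p = 0.714), and at 60 min its exact permutation p was 0.286. These contrasts were picked after the values were seen, and each exact permutation p for Arg-12 at 60 min and Arg-9 at 15 min was 0.143, the smallest the design allows.

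In the change from 15 to 60 min each probe's own reference value cancels. The medians used for centring still contain the reference, which can leave a shift common to all probes. This change was set against the same change in the 6 strain and medium pairs of the other depletions. In the gcn2Δ strain charging of tRNAArg fell further over these minutes, with log2 steps of -1.90 (Arg-9), -2.69 (Arg-10) and -2.16 (Arg-11), with -1.61 for Arg-12. The steps correspond to a further 3.73-fold, 6.47-fold, 4.48-fold and 3.05-fold. Limma called these 4 probes, lower, out of 41 (9.76%), with adjusted p values of 0.0043, 0.000109, 0.0020 and 0.0029 in that order. The wild-type mean of the Arg probes moved by -0.08, and limma called 0 of 41 probes. The lowest unadjusted p there was 0.0502, for Pro-6, a tRNAPro probe that stood 0.77 higher at 60 than at 15 min.

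The difference between the strains was then tested as such, the gcn2Δ value minus the wild-type value in the Arg experiment against the same difference in 3 other experiments. Each value is relative to the 0-min culture of its own strain, and charging at 0 min was not compared between the strains. At 60 min this relative charging was lower in the gcn2Δ strain by 9.59-fold (Arg-9), 8.72-fold (Arg-10) and 7.05-fold (Arg-11), with 5.14-fold for Arg-12. Limma called these 4 of the 41 probes (9.76%), with adjusted p values of 0.0030, 0.0026, 0.0030 and 0.0228. Outside Arg the smallest adjusted p from limma was 0.559. With only 3 experiments behind the spread the calls were fragile, while the 4 differences from the other experiments lay between -3.48 and -1.97 under the 3 alternatives named next. None was called without the Trp experiment (smallest adjusted p from limma 0.05001), without the Trp/Phe/Tyr experiment (0.0579), or on the Cy5 arrays alone (0.0865).

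At 15 min the log2 strain difference came to -1.30 (Arg-9), -0.77 (Arg-10) and -0.69 (Arg-11), with -0.77 for Arg-12. The mean of these, -0.88, stands for a charging ratio to 0 min that was 1.84-fold lower in the gcn2Δ strain than in the wild type. Limma called none of the 41 probes at that time. An unadjusted p below 0.05 was given to 3 probes, Arg-9 (0.0087, adjusted 0.357), Arg-10 (0.0324) and Asp-3 (0.0419). Whether the later fall itself differed between the strains was tested as an interaction, and limma called 1 of 41 probes (2.44%), Arg-10, with a difference in the 15-to-60-min change of -2.36 and an adjusted p of 0.0259. This call was lost on Cy5 arrays alone and without the His or the Trp/Phe/Tyr experiment, with adjusted p values from limma of 0.180, 0.410 and 0.0763. For Arg-9, Arg-11 and Arg-12 the adjusted p from limma was 0.178. For the Arg mean the exact permutation p of the strain difference was 0.25 at both times, which is the smallest that 1 experiment against 3 can give.

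**Figure D2:**
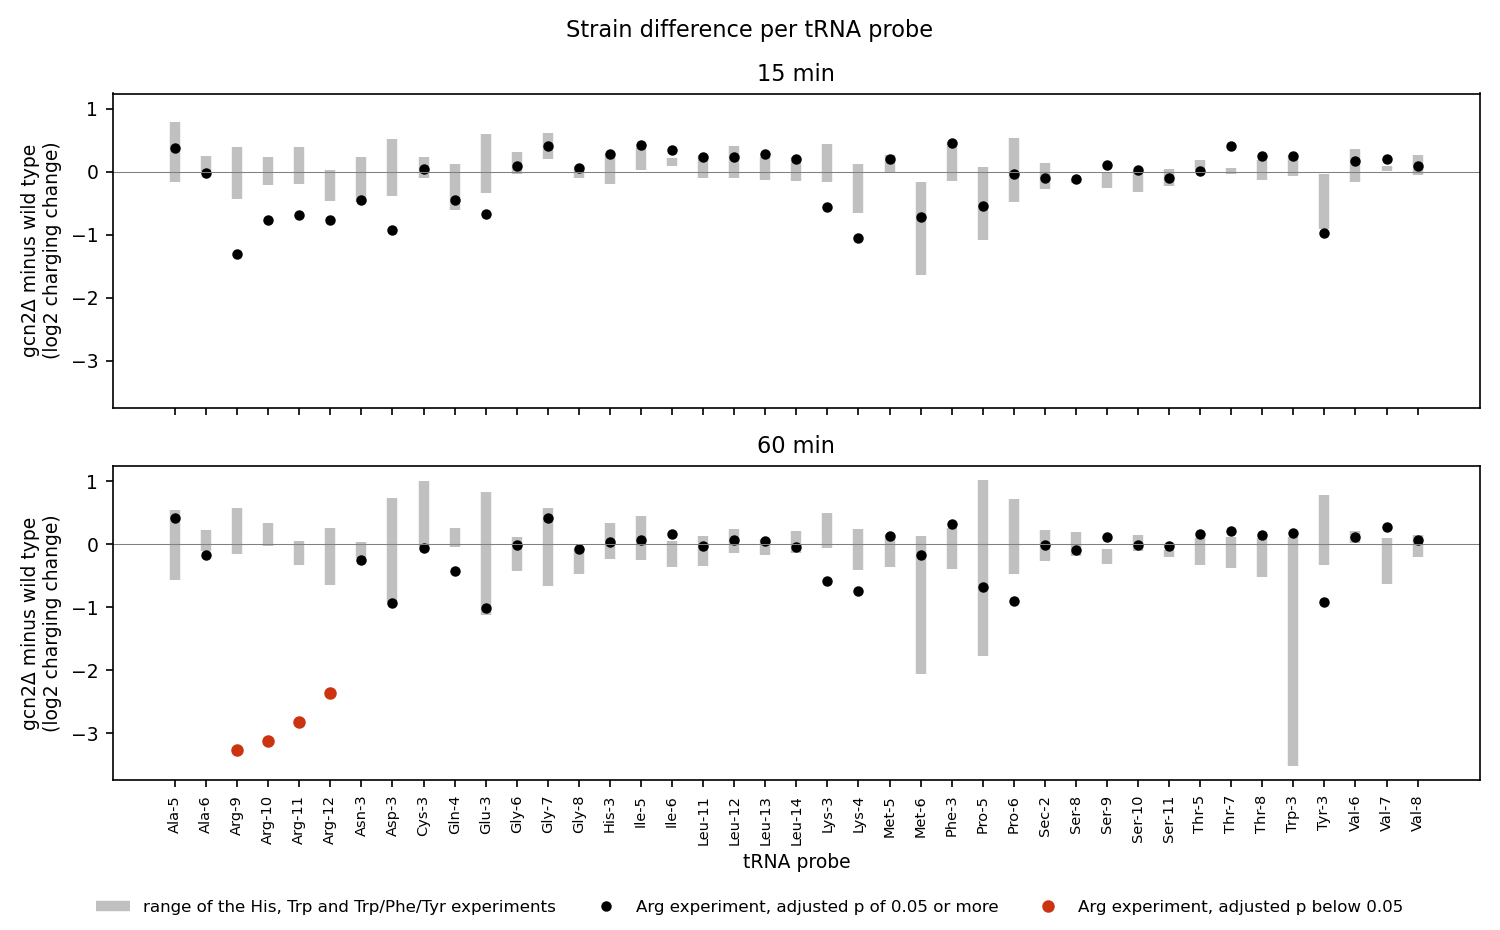
Difference in log2 charging change, gcn2Δ minus wild type, for each of the 41 tRNA probes at 15 min (top) and 60 min (bottom); dots are the Arg experiment, red where limma's adjusted p was below 0.05, and grey bars span the 3 comparison experiments. At 60 min the Arg probes lie between -3.26 and -2.36, below their grey bars and apart from the other dots, and at 15 min between -1.30 and -0.69; the long grey bar of Trp-3 at 60 min includes the Trp depletion itself.

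Among the amino acid groups outside Arg, that of the donors of carbon and nitrogen to arginine had the lowest median in the gcn2Δ strain. The 3 probes Glu-3, Asp-3 and Gln-4 had a median log2 charging change of -1.12 at 15 min and -0.88 at 60 min, the value of Asp-3. The single probes did not follow the grouping. Gln-4 (-0.37 and -0.31) was less low than Lys-4 (-0.89 and -0.50) and Tyr-3 (-0.82 and -0.70), which lie outside this group. The median over all 41 probes was -0.03 and -0.00 at these times. The wild-type medians of the 3 were -0.20 and 0.06. None of the 3 was called in either strain at either time, and limma called no probe outside Arg in any of the comparisons. Some were called under other settings. In the gcn2Δ culture at 15 min these included Glu-3 in 3 alternatives, Asp-3 in 2, and Gln-4 and Lys-4 in 1 each. At 60 min they included Glu-3 in 1. For the strain difference at 15 min Glu-3, Asp-3 and Lys-4 were called in 1 alternative each. Only the Arg, Glu, Asp, Gln, Lys and Tyr probes were followed singly across the alternatives, so this list is not complete.

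Glu-3, for the tRNA of the precursor of ornithine, read 0.337 and 0.558 on the gcn2Δ arrays at 15 min and 0.336 and 0.560 at 60 min. The wild-type arrays read 0.610 and 0.786, then 0.948 and 0.811. At each time both gcn2Δ arrays lay below both wild-type arrays. This held for 16 of all 41 probes (39%) at 15 min and for 14 (34.1%) at 60 min. The strain difference of Glu-3 at 60 min, -1.02, was however within the range of the 3 other experiments, whose lowest value was -1.12. Against the comparison cultures the log2 difference in the gcn2Δ strain was -1.14 (95% confidence interval -1.92 to -0.36, adjusted p from limma 0.0959) at 15 min. At 60 min it was -1.16 (-2.17 to -0.15, adjusted p from limma 0.240). Glu-3 had the largest gap between dye orientations in 4 of 13 array pairs, and Asp-3 in 3 of 13.

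Asp-3, for the tRNA of the amino acid joined to citrulline in argininosuccinate synthesis, read 0.380 and 0.555 in the gcn2Δ culture at 15 min and 0.406 and 0.730 at 60 min. Wild-type arrays read 0.708 and 1.08, then 1.08 and 1.00. The gcn2Δ difference from the comparison cultures was -1.04 (95% confidence interval -1.78 to -0.31, adjusted p from limma 0.0959) at 15 min and -0.76 (-1.68 to 0.17) at 60 min. Gln-4, for the tRNA of the nitrogen donor of carbamoyl phosphate, was less displaced and its paired arrays lay closer together. It read 0.771 and 0.779 at 15 min and 0.855 and 0.762 at 60 min in the gcn2Δ strain, and 1.02 and 1.09, then 1.17 and 1.01, in the wild type. Asn-3, the remaining probe for an acidic amino acid or its amide, stood at -0.17 and -0.02 on the log2 scale in the gcn2Δ strain and at 0.27 and 0.22 in the wild type.

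The probes for lysine, a basic amino acid like arginine, separated the strains without a call. Both gcn2Δ arrays lay below both wild-type arrays at each time, as for 39% and 34.1% of all 41 probes. Lys-4 read 0.505 and 0.577 at 15 min and 0.784 and 0.634 at 60 min in the gcn2Δ strain. Wild-type arrays read 1.09 and 1.15, then 1.44 and 0.971. Lys-4 had a limma adjusted p of 0.181 at 15 min in gcn2Δ cells, and its strain difference then, -1.05, was the nearest in size to that of Arg-9. Lys-3 lay closer to 1, at 0.904 and 0.862, then 0.973 and 0.723, in the gcn2Δ strain, and was among the highest probes of the wild type at 1.26 and 1.36, then 1.25 and 1.26. His-3, the other basic tRNA, stood at 0.24 and -0.08 on the log2 scale in the gcn2Δ strain and at -0.04 and -0.11 in the wild type, with no common direction.

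The aromatic tRNAs differed among themselves in the gcn2Δ cultures. Tyr-3 read 0.527 and 0.607 at 15 min and 0.602 and 0.634 at 60 min, where the wild type read 1.11 and 1.12, then 1.31 and 1.05. Phe-3 and Trp-3 had high values in the gcn2Δ cultures. In the mean of the paired arrays at 15 min Trp-3 was highest of the 41 with a log2 change of 0.38 and Phe-3 next with 0.36, though Ile-6 was highest on the Cy5 array. At 60 min Phe-3 had the highest mean, 0.27, and Trp-3 stood at 0.17, with Val-7 highest on the Cy5 array. Their adjusted p values from limma at 15 min were 0.539 and 0.543. Wild-type Phe-3 stood at -0.10 and -0.05 and Trp-3 at 0.12 and -0.01.

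**Figure D3:**
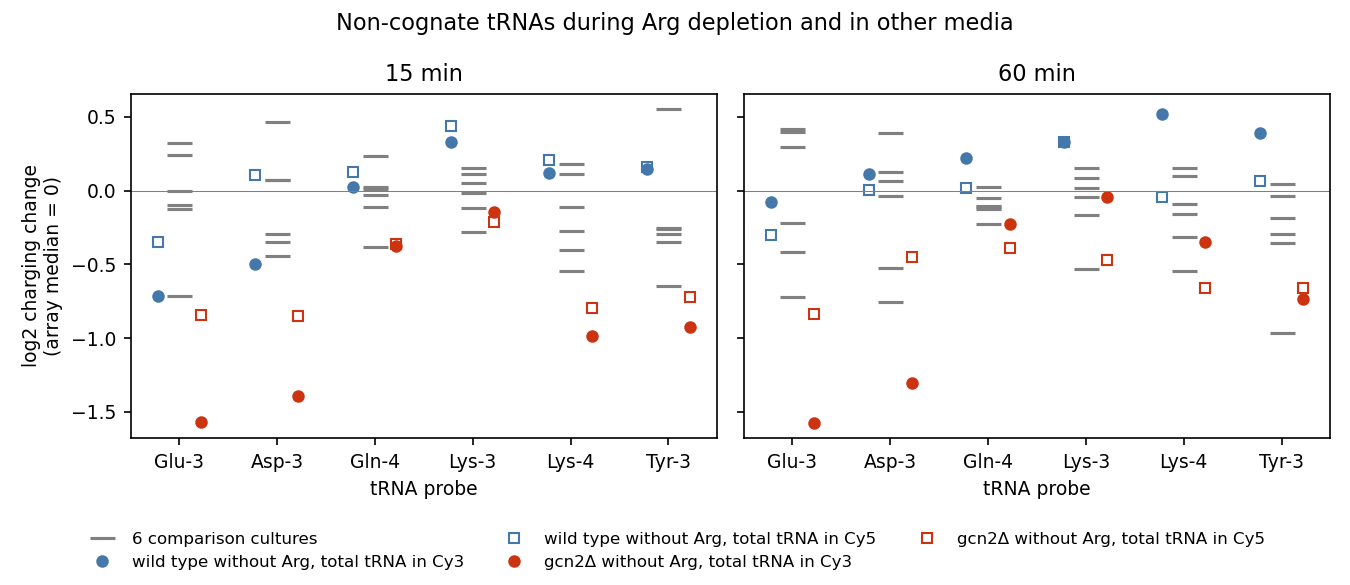
Log2 charging change of the Glu, Asp, Gln, Lys and Tyr probes at 15 min (left) and 60 min (right); circles and squares are single arrays with total tRNA in Cy3 and in Cy5, blue for wild type and red for gcn2Δ, and grey dashes are the 6 comparison cultures. The gcn2Δ arrays lie below the wild-type arrays of the same probe. This holds for 16 of all 41 probes at 15 min and for 14 at 60 min. Glu-3 at 60 min is the lowest. The grey dashes overlap the gcn2Δ arrays in part, as for Tyr-3 at 60 min.

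These non-cognate tRNAs showed no called fall from 15 to 60 min in the gcn2Δ strain, whereas the 4 Arg probes did. The 60-min minus 15-min value was -0.00 (Glu-3), 0.24 (Asp-3), 0.06 (Gln-4), 0.38 (Lys-4), -0.07 (Lys-3) and 0.13 (Tyr-3). The difference between these steps and those of tRNAArg was not tested. The mean of the 6 probes was -0.76 at 15 min and -0.64 at 60 min in the gcn2Δ strain, with 6 of 6 below 0 at both times. The wild-type means were 0.01 and 0.13. All 6 lay below 0 also in the wild-type culture without Trp at 15 min, with a mean of -0.37, in the wild-type culture without Trp, Phe and Tyr at 60 min, with a mean of -0.50, and in the gcn2Δ culture without Arg but with ornithine at 60 min, with a mean of -0.32. The 6 were grouped after their values were seen, and no test is given for them.

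The 9 probes for the branched-chain amino acids (Ile, Leu and Val) lay above 0 as a block in the gcn2Δ culture at 15 min, between 0.13 and 0.30 with a median of 0.22. The median of the 37 probes outside Arg was 0.11 in that culture, on arrays centred over all 41 probes. Of the 9, 5 were above all 6 comparison cultures, as were 10 of the 41 probes (24.4%), and none was called. By 60 min their median was 0.04, with 8 of 9 above 0. The wild-type medians were -0.03 and -0.04. The 7 probes for the hydroxyl amino acids (Ser and Thr) had medians of -0.10 and 0.06 in the gcn2Δ strain, and the 8 for the small ones (Ala, Gly, Cys and Pro) medians of 0.04 and -0.07. Grouped by the class of their synthetase, the gcn2Δ medians at 15 min were 0.17 for class I without Arg (16 probes, 9 of them branched-chain) and -0.05 for class II (20 probes). At 60 min they were 0.01 and -0.03. The probe named Sec-2 in the files stayed between -0.05 and 0.11 in the 4 cultures.

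None of the tRNAs at either end of the wild-type values was called. Pro-6 was highest at 60 min, with ratios of 2.18 and 1.24 that differed by 0.81 on the log2 scale between the dye orientations, and Pro-5 was next with 1.58 and 1.33. In the gcn2Δ culture at 60 min Pro-6 read 1.09 and 0.716 and Pro-5 1.02 and 0.811. Met-6 was highest in the wild type at 15 min with 1.57 and 1.43. Its log2 change of 0.58 lay inside the range of -0.89 to 1.48 of the comparison cultures, and it was -0.05 at 60 min, and -0.13 and -0.23 in the gcn2Δ strain. The other methionine probe, Met-5, stayed between -0.12 and 0.20 in the 4 cultures. Outside Arg, the low end of the wild type held Glu-3, Thr-7 and Ser-9 at 15 min (-0.53, -0.27 and -0.27) and Gly-7, Ala-5 and Glu-3 at 60 min (-0.28, -0.21 and -0.19). At the high end of the gcn2Δ strain after Phe-3 were Leu-11 at 15 min (0.30) and Ala-5 and Thr-5 at 60 min (0.20 and 0.17).

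**Figure D4:**
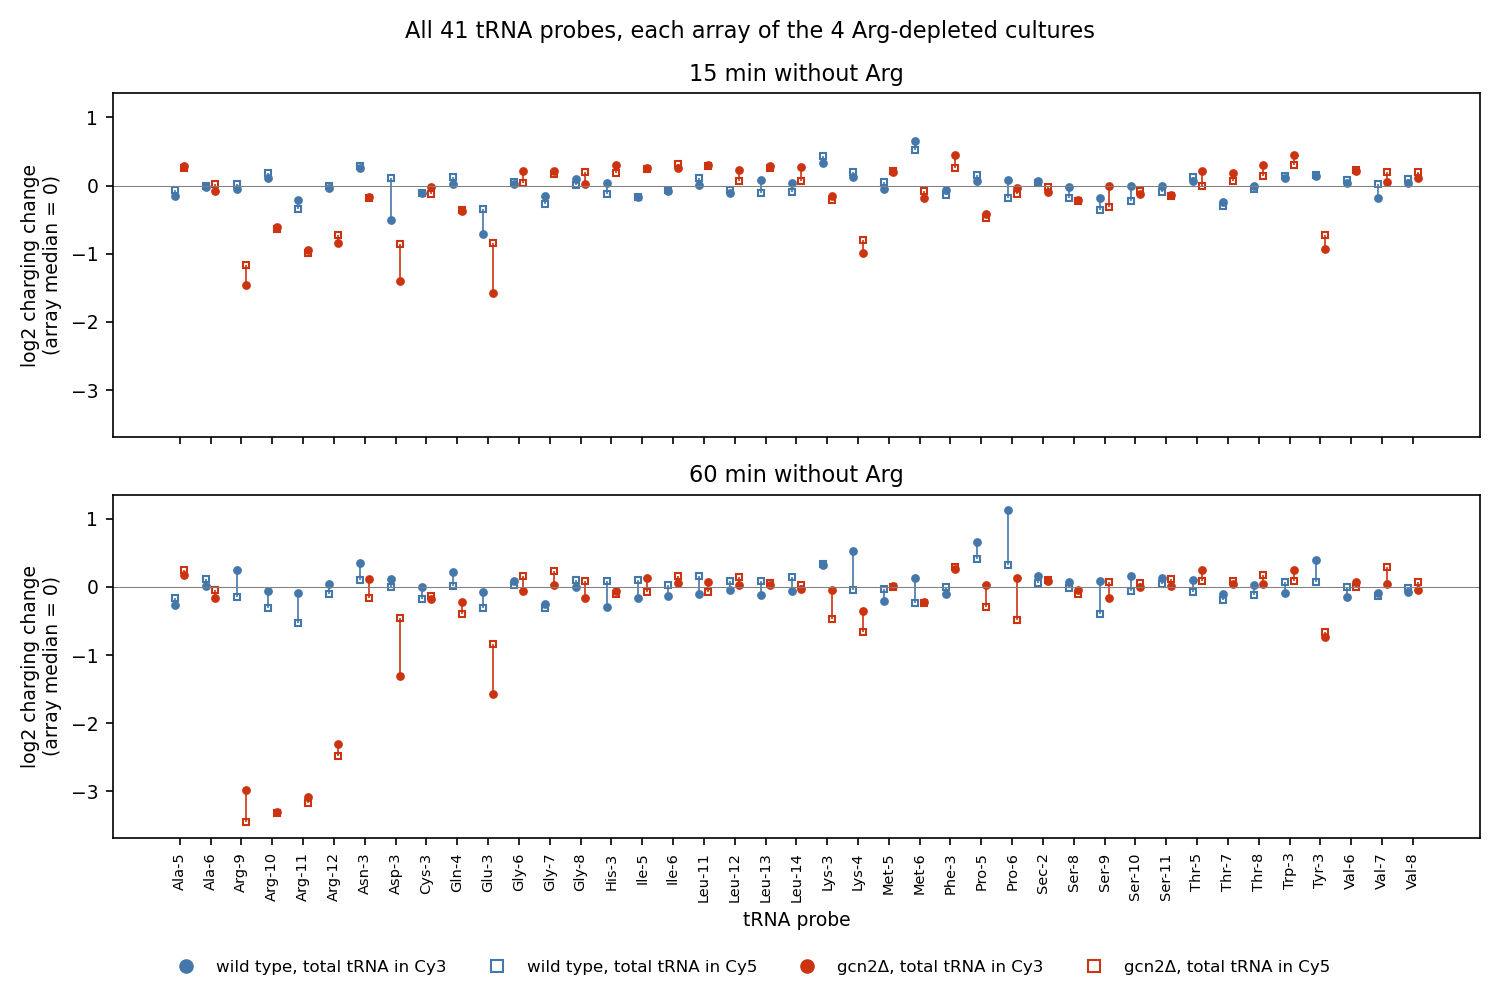
Log2 charging change of the 41 tRNA probes on each of the 8 arrays at 15 min (top) and 60 min (bottom); circles and squares are arrays with total tRNA in Cy3 and in Cy5, joined by a line for each culture, blue for wild type and red for gcn2Δ. The gcn2Δ Arg values near -3 at 60 min lie far from the rest, and the longest joining lines belong to Asp-3, Glu-3 and Pro-6.

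Some probes lay on opposite sides of the array median in the strains, on both arrays of each culture. At 15 min 17 of 41 did so, 9 of them lower and 8 higher in the gcn2Δ strain, and at 60 min 10 did so, 5 each way. In the His experiment the counts were 6 and 4, and in the Trp experiment 3 and 6. A probe can count only where the paired arrays of a culture share a sign. In the gcn2Δ cultures at 15 min, 1 of 41 probes had opposite signs without Arg, 28 without His and 21 without Trp. The counts are thus not comparable between the experiments. At both times of Arg depletion Tyr-3, Lys-3 and Gln-4 were below the median in the gcn2Δ strain and above it in the wild type, and Ala-5, Gly-7, Phe-3 and Thr-7 the reverse. The SD over the 37 probes outside Arg was 0.396 and 0.302 in the gcn2Δ cultures at 15 and 60 min, and 0.189 and 0.194 for the wild type. The comparison cultures ran from 0.121 to 0.395 at 15 min, just under the gcn2Δ value, and from 0.148 to 0.773 at 60 min, where the highest culture was depleted of Trp and its SD includes its own cognate probe, Trp-3.

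Where ornithine was added to the medium without Arg, the Arg mean of the gcn2Δ culture was -0.02 at 15 min and -1.42 at 60 min, against -0.92 and -3.01 without it. The 15-min culture with ornithine rests on 1 array, with total tRNA in Cy3, and its mean of the 6 non-cognate probes above was 0.42, with 0 of 6 below 0. Arg-12 was again the least affected at 60 min with ornithine, at -0.65, where Arg-9 stood at -1.999, Arg-10 at -1.40 and Arg-11 at -1.64.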

How the data were processed

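Charged and total tRNA of each culture were hybridised in different dyes to arrays of 41 tRNA probes. As deposited, the values are linear ratios relative to the matching 0-min array (same strain, experiment and dyes), with array medians near 1. The scanner, the software and any background correction are not given in the sources used here, and signal over background was not analysed here. Log2 was taken with no pseudocount or filter, arrays were centred on their median, and dye-swapped arrays were averaged. Of the comparison cultures, 3 had 1 array. In the Trp depletion, 4 Cy5 arrays opposed their dye-swap partners and were turned, a direction that the labels do not state. After turning, these pairs correlated at 0.55 and 0.22 (wild type, 15 and 60 min) and at 0.32 and 0.90 (gcn2Δ). Turning was applied to this experiment only. The gcn2Δ pair without His at 15 min, which correlated at -0.28, was averaged as deposited. Tests were limma 3.58.1 (lmFit, eBayes) under R 4.3.3 and exact permutation over cultures. The limma step was also run on simulated data in which all cultures varied alike. Such a run cannot check that the lone culture varies like the others. Named are the probes for Arg, Glu, Gln, Asp, Asn, Lys, His, Tyr, Met, Pro, Phe and Trp, called probes, and the 3 lowest and highest outside Arg in each culture; others are given by group. Members, groups and tests were chosen with earlier results of these data known. Alternatives were the centring, single dye orientations, the direction of the Trp arrays, other comparison sets, strain as a covariate, experiment as a random block, and 2 other forms of moderation. Whether the times came from separate flasks is not given in the sources used here. Several samples of the series from other depletions were not used here.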

Additional observations from a re-analysis of the deposited data

Results flagged for a closer look

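For the Arg probes, the effect of Arg depletion at 60 min differed between the strains by the test of the difference itself (limma with Benjamini-Hochberg adjustment). The gcn2Δ minus wild-type log2 value was then -3.26 (Arg-9), -3.13 (Arg-10) and -2.82 (Arg-11), with -2.36 for Arg-12, lower on both arrays of the pair in each case. All 4 calls were lost on Cy5 arrays alone and without the Trp or the Trp/Phe/Tyr experiment. At 15 min no probe was called for this difference. For Arg-10 the change from 15 to 60 min also differed, by -2.36, a call lost on Cy5 arrays alone and without the His or the Trp/Phe/Tyr experiment. Each test sets 1 experiment against 3. No group held the 4 samples that a search for single deviating samples needs.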

How the results depend on the processing

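Of 220 alternative values for counts of called tRNAs and Arg means, 190 were taken as unchanged. For a count this meant equal or close to the main count, and for an Arg mean the same sign. For single probes, 632 of 696 kept their direction and side of the threshold (34 lost the threshold, 29 gained it, 1 reversed). In the gcn2Δ strain at 60 min, limma called 4 to 5 probes under each alternative run and the Arg mean relative to the comparison cultures stayed between -3.11 and -2.84, and for 60 against 15 min it called 3 to 4. In the wild type it called 0 throughout. In the gcn2Δ strain at 15 min the 2 calls became 0 on Cy3 arrays alone, 9 on Cy5 arrays alone, 0 without the His or the Trp/Phe/Tyr experiment, 4 without the Trp experiment, 1 with a trend in the moderation, 4 with cultures of the same strain and 0 with strain as a covariate. Leaving out each comparison culture in turn gave 0 to 4. The strain difference at 60 min, with 4 calls, gave 0 on Cy5 arrays alone, 0 without the Trp or the Trp/Phe/Tyr experiment and 2 with a trend. At 15 min, with no call, it gave 5 on Cy5 arrays alone and 1 each with the Trp Cy5 arrays as deposited, without His and without Trp. The interaction, with 1 call, gave 0 on Cy5 arrays alone, 5 with the Trp arrays as deposited, 4 without Trp, and 0 without His or without Trp/Phe/Tyr. The wild-type Arg mean relative to the comparison cultures reversed at 60 min from -0.07 to 0.11 on Cy3 arrays alone. At 15 min it reversed from 0.00466 to -0.0754 on Cy5 arrays alone, -0.0589 without Trp and -0.0137 with cultures of the same strain, and ran from -0.0470 to 0.0556 with each culture left out in turn. Lys-3 in the gcn2Δ culture at 60 min reversed from -0.17 to 0.12 on Cy3 arrays alone. Leaving out an experiment also leaves fewer comparison cultures; otherwise the cause was not tested. No analysis paired by replicate was possible, because each condition had 1 culture and the labels carry no replicate numbers. The strains were compared within each experiment by difference. The number of arrays limits the precision.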
